A study of Mus musculus with 4 samples.

Results

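The replication-dependent histone genes encode the bulk of the linker histone H1 and of the core histones H2A, H2B, H3 and H4. Members were the protein-coding genes of a RefSeq gene table (assembly GRCm38.p6) whose current symbol is H1f1 to H1f6 or starts with H2ac, H2bc, H3c or H4c and a number, which gave 63 genes. A further 4 genes carried an older symbol of the Hist1h to Hist4h series only: H2bu2 (formerly Hist3h2ba), H2aw (Hist3h2a), H4f16 (Hist4h4) and H4bc24 (Hist1h2br, an H2B gene in spite of its current symbol). The 67 members stand among 21887 protein-coding genes. They comprise 6 genes for H1, 18 for H2A, 18 for H2B, 12 for H3 and 13 for H4. On chromosome 13 lie 54 of them, on chromosome 3 lie 10, on chromosome 11 lie 2, and H4f16 lies alone on chromosome 6.

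In dividing cells these genes are transcribed at the start of DNA replication, when new chromatin has to be packed. Their messenger RNAs mostly lack introns and a poly(A) tail and end in a stem-loop that the protein Slbp binds. The gene clusters gather in a nuclear compartment, the histone locus body, around the coactivator Npat. H2A and H2B genes often sit head to head and share the stretch between their starts as a promoter. Trimethylated lysine 4 of histone H3 (H3K4me3) marks active and poised promoters, and trimethylated lysine 9 (H3K9me3) marks heterochromatin and silenced repeats. Elicited peritoneal macrophages are mature phagocytes that are usually described as dividing little in culture.

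Chromatin immunoprecipitation sequencing (ChIP-seq) peaks of both marks were available from adherent peritoneal macrophages of C57BL/6 mice aged 8 weeks, elicited with thioglycollate broth. The cells had been kept for 24 h with lipopolysaccharide (LPS), the outer membrane molecule of Gram-negative bacteria that macrophages sense through Toll-like receptor 4, or with buffered saline alone (PBS). There were 4 libraries, 1 for each mark and treatment, so no difference between LPS and PBS has a replicate check and no test was made. Whether the cells of several mice were pooled is not given in the sources used here.

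The filtered H3K4me3 libraries held 26748289 tags (LPS) and 29681491 tags (PBS), and the H3K9me3 libraries 28586946 and 27727997. As a check of the labelled cell type, all 10 macrophage markers looked at (among them Adgre1, Csf1r and Spi1) had H3K4me3 in both lists. Of the markers of other cells, the T cell genes Cd3e and Cd2, the B cell gene Ms4a1 and the neutrophil genes S100a9, Ly6g and Elane had no peak. The B cell genes Cd79a (256 LPS and 354 PBS tags) and Pax5 (268 and 382) had H3K4me3 in both lists. Both lists marked 2 of 4 T cell, 0 of 5 neutrophil and 2 of 5 mesothelial or fibroblast genes. The neutrophil genes S100a8 and Camp had a peak in LPS alone, and Upk3b and Krt19 in PBS alone. The part of other cells in the histone values was not tested. In a bulk library, fewer cells with a mark and less of it per cell cannot be told apart.

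Nearly every histone gene carried H3K4me3 in both macrophage libraries. A peak lay on the gene or within 1 kb of it in both lists for 66 of the 67 genes (98.5%, exact 95% Clopper-Pearson interval 92.0 to 100). All 67 genes had a peak in the LPS list and 66 in the PBS list. The background over all protein-coding genes was 67.3%. Histone genes are short, and of the 1516 other protein-coding genes of at most 1000 bp only 55 (3.63%, interval 2.74 to 4.70) had H3K4me3 in both lists. That set was chosen by length alone, and the kinds of gene in it were not looked at. All intervals here cover counting error only.

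H1f6 was the exception. It encodes the linker histone H1t of the testis, and its peak of 34 tags was in the LPS list alone. That peak had a score of 59.2, where the lowest score in that list is 50. The other germline members, H2ac1 and H2bc1, encode the testis forms of H2A and H2B and share an upstream stretch on chromosome 13. Between them they had 1 peak in each list, of 35 tags in LPS and 53 in PBS. This peak lay over H2bc1, and no peak in either list lay on H2ac1 itself. Among the somatic regions in both lists the one with fewest tags was H4c3, an H4 gene, with 44 and 56 tags. In the LPS list no histone region held fewer tags than the 2 germline regions.

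Peaks that serve several genes were counted once. LPS and PBS peaks that overlapped or touched were joined into regions, which gave 64 regions from 63 LPS and 67 PBS peaks. Both lists held 59 of these regions. The region of H1f6 was in the LPS list only and 4 regions were in the PBS list only. The first of these lay over the H4 gene H4c17 with 108 tags, so that H4c17 met an LPS peak only in its flank, over its neighbour H2ac23. Another, of 52 tags, lay over the outer end of H2bc6, next to the linker histone gene H1f4. A peak of 20 tags lay inside the annotated span of H2bc4, and one of 95 tags flanked the H4 gene H4c14.

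On chromosome 13 the genes fall into 4 runs separated by more than 100 kb. The first run holds 18 histone genes in 121.82 kb and no other protein-coding gene. The second holds 5 in 8.54 kb. The largest holds 29 in 233.37 kb with the iron regulator Hfe as the only other protein-coding gene, and the last holds the germline pair. H3K4me3 in these runs consisted of separate regions, as the map of tags along the larger runs shows. Some peaks covered several genes, such as a PBS peak of 2982 bp over H2bc13, H2ac13 and H3c10. Between the runs the density of the mark differed by stretch. The stretch of 195.59 kb after the first run holds 3 protein-coding genes (Zfp184, Pom121l2 and Prss16), all with H3K4me3 in both lists, and had 12 LPS and 15 PBS peaks, or 61.4 and 76.7 per Mb. The longest stretch between them spans 1485.38 kb and holds 41 protein-coding genes, of which 36 are vomeronasal receptors of the Vmn1r family, expressed in sensory neurons of the nose. None of the 36 had H3K4me3 in both lists. The LPS list had 14 H3K4me3 peaks there and the PBS list 20, or 9.43 and 13.5 per Mb. The stretch of 167.31 kb before the germline pair holds 5 protein-coding genes and had 0 peaks of either mark in any list.

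**Figure D1:**
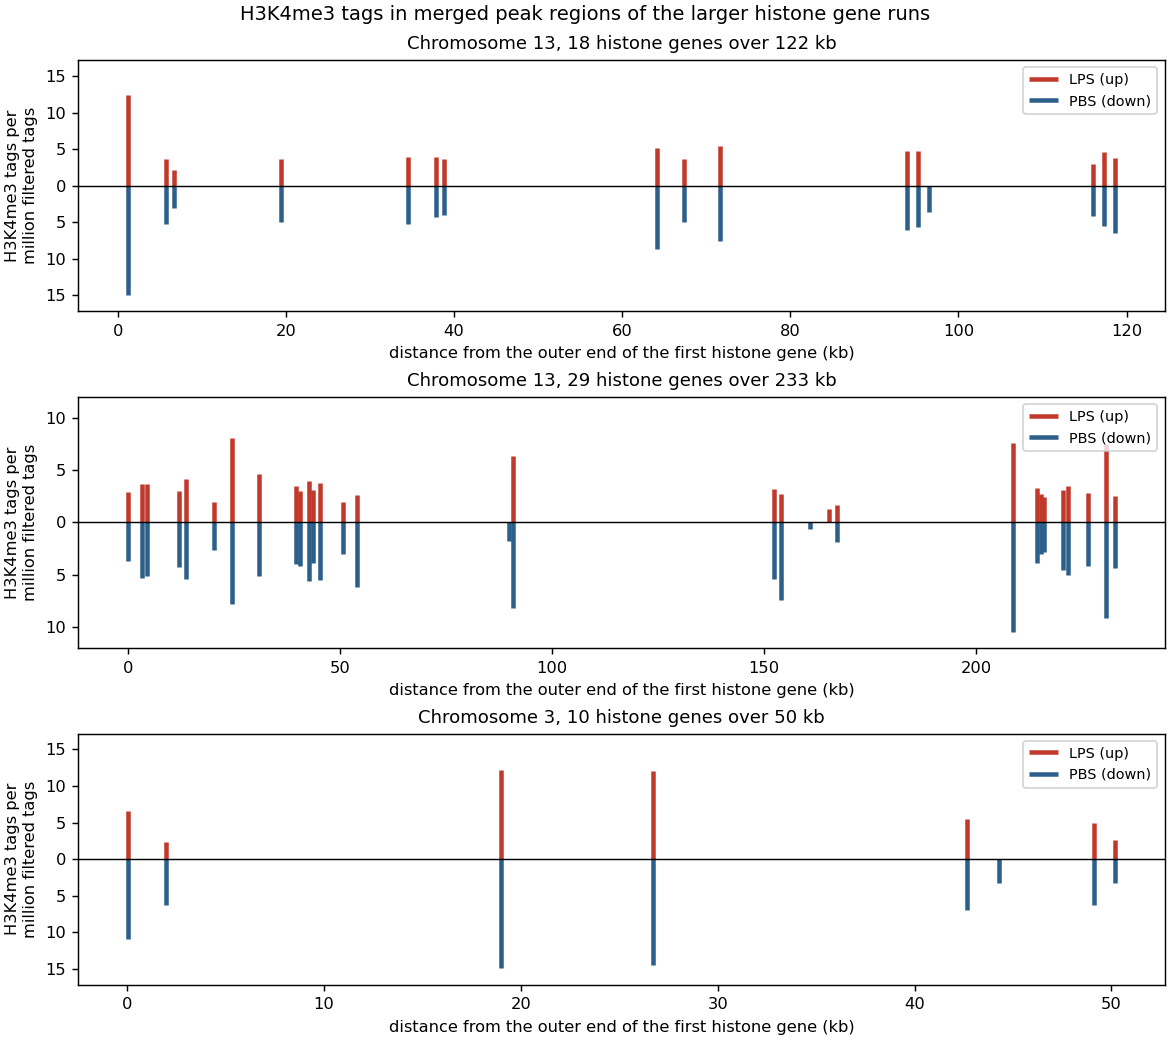
Each vertical line is a merged H3K4me3 region, placed by its distance in kb from the outer end of the first histone gene of the run. Its height is the number of tags per 1000000 filtered tags in LPS (red, up) and in PBS (blue, down). The tallest region of each of the first and last panels reaches 12.4 and 12.1 in LPS and 15.0 and 14.9 in PBS, and lines on 1 side only are regions in 1 list.

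The regions with most tags on chromosome 13 covered several genes. The region of H2bc13, H2ac13 and H3c10 (chr13:21715408-21718389) held 331 tags in LPS and 444 in PBS. H1f2, a somatic linker histone gene, stood alone under a region of 202 and 310 tags. The divergent pair H2ac12 and H2bc12 shared 189 and 284 tags, and H4c1 with H3c1 shared 200 and 271. In each of these regions LPS was the lower, also per filtered tag.

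On chromosome 3 the leading regions were those of H3c15 with H2ac19 (324 tags in LPS, 443 in PBS) and of H2ac18 with H3c14 (321 and 430). These gene pairs are near copies of each other. In their promoter windows, 74.6% (H3 genes) and 67.9% (H2A genes) of the 49 base words occur in the other copy, where 49 bases is the shorter tag length of the H3K4me3 libraries. How tags with several matches were placed is not given in the sources used here, so the split of tags between the copies is uncertain. H2ac21 with H2ac20 held 177 and 325 tags, and H4c14 held 145 and 208.

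The small chromosome 11 locus, whose span the protein-coding gene Trim17 also overlaps, gave 3 regions. H2aw, an H2A gene, lay under 133 tags in LPS and 211 in PBS, and a neighbouring region of 101 and 138 tags met only its flank. H2bu2, its H2B neighbour, held 59 and 116 tags. H4f16 on chromosome 6 held 88 and 150 tags.

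The same copying affects part of the first chromosome 13 run. Of the 62 members with a promoter entry in the RefSeq sequence table, 12 shared 49 base words with a promoter elsewhere, and 10 shared at least 50% of them. These 10 include H2bc23 and H4bc24, all of whose words occur elsewhere in that run, and H4c17 with H4c18 (94.0%). The PBS-only call at H4c17 is thus a call in a copied sequence. H3c1, H3c7, H4c14, H2bc4 and H2bc21 have no entry in that table.

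The H3K4me3 peaks of the histone genes began close to the start of transcription and covered the short genes whole. Starts were available for the same 62 members. At 100 bp downstream of the start, 59 starts were covered by an LPS peak (95.2%) and 60 by a PBS peak (96.8%). For 11715 other genes with H3K4me3 in both lists the shares were 85.8% and 88.2%. At 1000 bp downstream the order was the reverse, with 24.2% and 38.7% of histone starts covered against 51.1% and 59.5% elsewhere. Of the 61 members of at most 1000 bp, all with an LPS peak, 47 were covered over their whole length in LPS (77.0%), as were 46 of the 60 with a PBS peak (76.7%). Other genes of at most 1000 bp with a peak were covered whole in 22 of 68 cases (32.4%) and 28 of 67 (41.8%).

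Upstream the coverage was broken. At 100 bp before the start only 18 of 62 histone starts lay under an LPS peak (29.0%) and 14 under a PBS peak (22.6%), against 65.6% and 72.2% of the other genes. At 500 bp before the start coverage was 53.2% and 58.1%, against 43.4% and 51.1% of the other genes. Only the H2A and H2B families exceeded the other genes at that point, and H1, H3 and H4 lay below them in both lists. In LPS it was covered in 0 of 6 H1, 13 of 18 H2A, 13 of 16 H2B, 4 of 10 H3 and 3 of 12 H4 genes. The PBS counts were 0, 14, 14, 4 and 4. Coverage at 100 bp upstream was lowest for H2A and H2B genes. In LPS a peak covered the point 100 bp upstream in 2 of 6 H1, 3 of 18 H2A, 2 of 16 H2B, 5 of 10 H3 and 6 of 12 H4 genes. In PBS the counts were 2, 2, 2, 4 and 4. Summits lay at a median of 227 bp (LPS) and 247 bp (PBS) downstream of the start, and at 207 and 191 bp for the other genes.

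**Figure D2:**
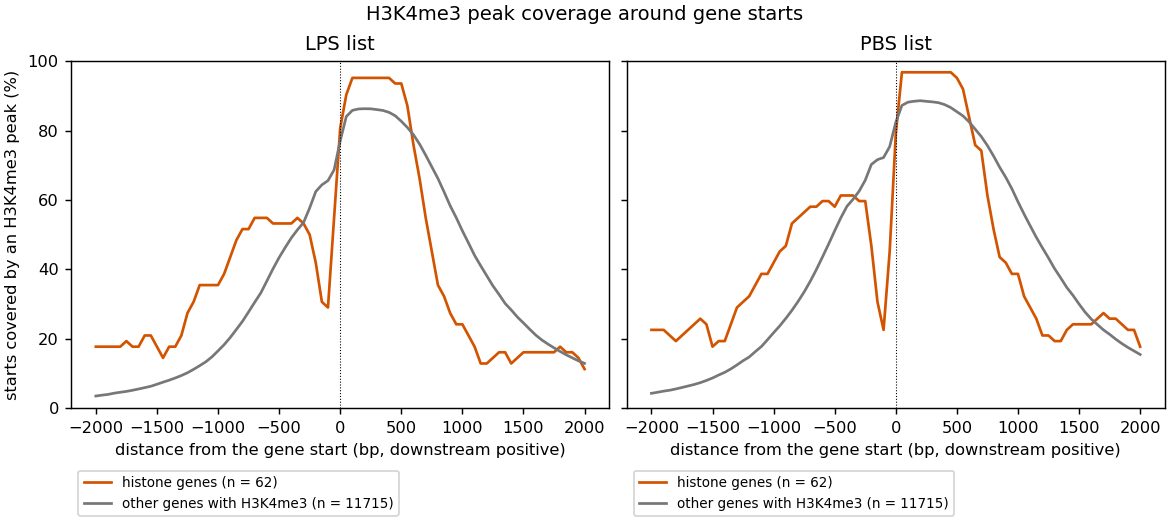
The horizontal axis is the distance from the annotated start in bp, positive downstream, and the vertical axis the percentage of starts covered by an H3K4me3 peak, for histone genes (orange) and other genes with H3K4me3 (grey). The left panel is the LPS list and the right panel the PBS list. Histone coverage drops to 29.0% and 22.6% at 100 bp upstream and exceeds 95% just downstream.

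The gap between divergent H2A and H2B genes could be measured at 10 pairs with starts 164 to 281 bp apart. In LPS 7 pairs had a peak on either side with a gap at the starts, 2 lay under 1 joint peak, and the germline pair had a peak on 1 side. In PBS the counts were 8, 1 and 1. The gaps were 61 to 206 bp wide in LPS (median 145 bp) and 119 to 182 bp in PBS (median 161.5 bp). Of other divergent pairs of protein-coding genes within 1000 bp, 242 of 625 with a peak (38.7%) had such a gap in LPS and 235 of 628 (37.4%) in PBS. Where the starts of other pairs were 150 to 300 bp apart, the shares were 59.4% of 160 and 54.0% of 161. With 10 histone pairs the exact Clopper-Pearson intervals of their shares (34.8 to 93.3% in LPS, 44.4 to 97.5% in PBS) hold those values.

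The stretches before the starts are the proximal promoters, and a few are shown to let the motifs be seen. The sequences are from RefSeq (GRCm38.p6), written 5′ to 3′ on the strand of the gene, and end at the base before the annotated start. Capitals mark matches on either strand to the motifs searched. The 4 that come first belong to the region of most H3K4me3 tags for each core histone family: H2ac13 (chr13:21716262-21716411, plus strand), H2bc13 (chr13:21716184-21716333, minus strand), H3c10 (chr13:21717478-21717627, plus strand) and H4c1 (chr13:23761250-23761399, minus strand). H2ac13 and H2bc13 are head to head, so their stretches overlap on opposite strands.
H2ac13: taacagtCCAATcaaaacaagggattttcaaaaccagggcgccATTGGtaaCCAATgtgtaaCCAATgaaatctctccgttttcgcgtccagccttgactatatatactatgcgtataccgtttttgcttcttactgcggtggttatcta
H2bc13: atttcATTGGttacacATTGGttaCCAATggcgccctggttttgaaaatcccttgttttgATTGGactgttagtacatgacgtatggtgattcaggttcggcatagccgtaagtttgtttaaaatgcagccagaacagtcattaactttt
H3c10: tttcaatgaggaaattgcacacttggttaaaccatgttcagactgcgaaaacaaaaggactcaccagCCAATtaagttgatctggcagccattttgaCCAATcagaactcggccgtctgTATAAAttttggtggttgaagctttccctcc
H4c1: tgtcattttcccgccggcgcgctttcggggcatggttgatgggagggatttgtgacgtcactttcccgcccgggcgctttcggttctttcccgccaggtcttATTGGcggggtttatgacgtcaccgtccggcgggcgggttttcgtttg

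A further 3 are shown for the H2B genes with the lowest LPS to PBS ratios described further on, and were chosen after the values were seen. H2ac6 (chr13:23683960-23684109, minus strand) lies beside H2bc4, and H2ac20 (chr3:96220881-96221030, minus strand) beside H2bc21, so both stretches lie between an H2A and an H2B gene. H2bc6 has 2 annotated starts, and the stretch shown (chr13:23585971-23586120, minus strand) precedes the one that lies inside its H3K4me3 region.
H2ac6: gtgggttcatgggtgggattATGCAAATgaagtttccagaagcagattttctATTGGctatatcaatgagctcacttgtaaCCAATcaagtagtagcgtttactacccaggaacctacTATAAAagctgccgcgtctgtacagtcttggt
H2ac20: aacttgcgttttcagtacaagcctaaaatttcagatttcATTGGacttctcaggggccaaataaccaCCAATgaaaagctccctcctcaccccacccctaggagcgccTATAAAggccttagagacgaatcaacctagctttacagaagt
H2bc6: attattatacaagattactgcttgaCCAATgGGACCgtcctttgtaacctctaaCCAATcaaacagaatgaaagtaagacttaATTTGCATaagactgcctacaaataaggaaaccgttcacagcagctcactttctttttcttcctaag

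The motifs were searched on both strands in windows of 300 bases, from 250 before to 50 after the start, and matches may overlap. The windows of the 10 head-to-head H2A and H2B pairs, with starts 164 to 281 bp apart, overlap. Some other promoters are copies of each other. A site can thus count for more than 1 member, and the member counts are not of independent promoters. A match is a run of letters and not a bound site. CCAAT, the letters read by the factor NF-Y, was in the windows of 53 of the 62 members (85.5%) and in 39.2% of all 17492 windows. It was in every H1, H2A, H2B and H3 window and in 3 of the 12 H4 windows. The octamer ATTTGCAT, read by the Oct1 protein (Pou2f1), was in 13 member windows against 1.72% of all, with 7 of 18 for H2A, 6 of 16 for H2B and 0 elsewhere. Its longer form with a further A at the end was in 11 member windows (17.7%) against 0.692%. TATAAA was in 35 (56.5%) against 13.3%.

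Other motifs followed the families too. The letters AAACACA, known from H1 promoters, were in 5 of 6 H1 windows and in 9 of 62 overall (14.5%, against 6.16% of all windows). GGTCC, the core of the H4 site that the factor Hinfp reads, was in 11 of 12 H4 windows. Over all members it was in 26 (41.9%), below the 48.8% of all windows. TTTCGCGC, a form of the E2F site, was in 9 windows (14.5%), 5 of H2A and 4 of H2B genes, against 0.452% of all.

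H3K4me3 at the histone regions held fewer tags in the LPS library than in the PBS library. The measure is a log2 ratio, LPS over PBS, of tag counts divided by the filtered tags of each library. Over the 59 regions in both lists the median was -0.45 (95% interval from the ranked values -0.50 to -0.35, which treats regions as independent). The quartiles were -0.53 and -0.29 and the range was -1.43 to 0.06. The ratio was below 0 in 58 of the 59 regions. Most regions on or near genes shared that direction: over all 18220 regions in both lists near protein-coding genes the median was -0.33 and 83.5% lay below 0. Of the histone regions, 40 lay below that median.

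For single regions the counts resolved little beyond the general shift. The counting interval lay wholly below 0 in 41 regions and held 0 in 18, while over all regions 53.6% lay wholly below 0 and 3.53% wholly above. Set against the median of all regions, the interval lay wholly below -0.33 in 9 histone regions, wholly above it in 1 (H1f3) and held it in 49. In tags per covered kb, which divides by the length called in each library, the histone median was -0.23 and that of all regions -0.17. Tags and length both follow from the call, so this division may not remove all effect of peak length. Centred on the median shared region, the histone median was -0.12.

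**Figure D3:**
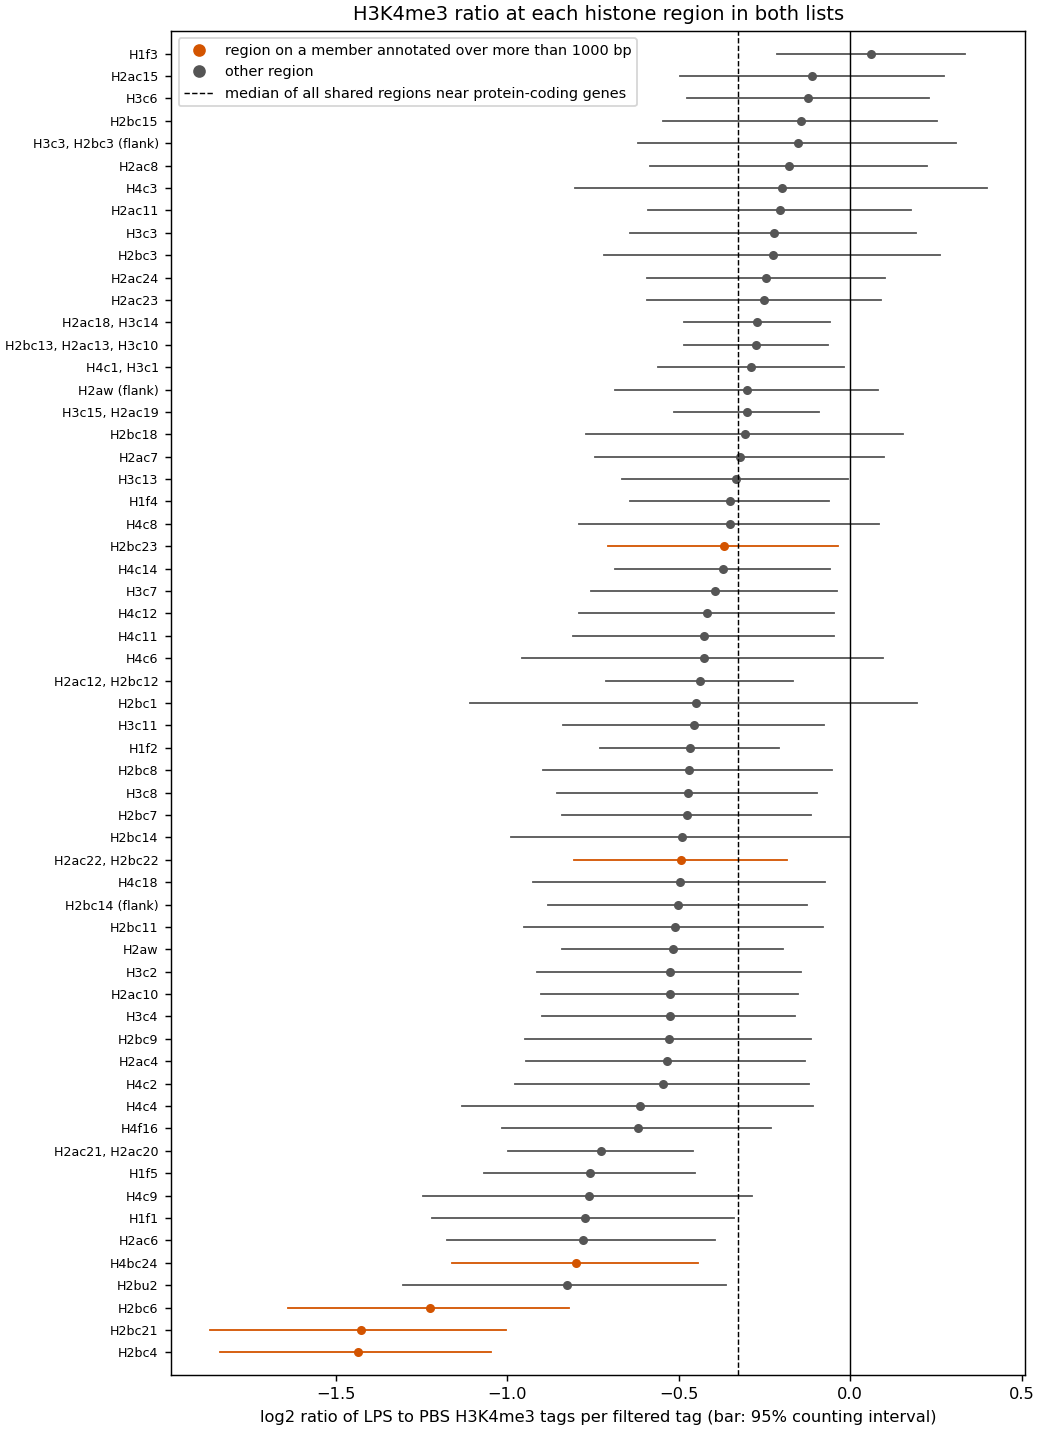
Points are the log2 ratios of LPS to PBS H3K4me3 tags per filtered tag at the 59 histone regions in both lists, sorted, and bars are 95% counting intervals. Labels give the genes under each region, orange marks members annotated over more than 1000 bp, and the dashed line is the median of all shared regions (-0.33). H2bc4 and H2bc21 lie lowest at -1.43 and only H1f3 lies above 0.

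Tags were also summed over each cluster, and a region in 1 list only counts as 0 in the other. On chromosome 13 the regions held 5095 LPS and 7783 PBS tags (log2 ratio -0.46, counting interval -0.51 to -0.41) over 45.0 and 54.7 covered kb. On chromosome 3 they held 1232 and 1968 (-0.53, -0.63 to -0.42) over 9.48 and 13.3 kb. This sum includes the PBS-only region near H4c14, and over the 7 regions in both lists it was -0.45 and their median -0.33, that of all regions. On chromosome 11 they held 293 and 465 (-0.52, -0.73 to -0.30), and the regions on the genes without flanks gave -0.62. H4f16 gave -0.62 (-1.02 to -0.23). These intervals overlap one another. Per covered kb the values were -0.18 on chromosome 13, -0.034 on chromosome 3, -0.32 on chromosome 11 and 0.03 at H4f16. On chromosome 3 the lower LPS sum thus went with a shorter called length. Over its 7 regions in both lists the value per covered kb was -0.10. The 3 runs of somatic genes on chromosome 13 gave -0.47, -0.45 and -0.46.

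The highest ratios stood near 0. The linker histone gene H1f3 held 217 LPS and 231 PBS tags (0.06, interval -0.21 to 0.33). The H2A gene H2ac15 held 106 and 127 (-0.11), the H3 gene H3c6 held 125 and 151 (-0.12), and the H2B gene H2bc15, head to head with H2ac15, held 97 and 119 (-0.14). Each of these 4 intervals held 0. The linker histone genes were spread along the ranking: H1f4 stood at -0.35, H1f2 at -0.47, H1f5 at -0.76 and H1f1 at -0.77.

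The lowest ratios were at H2B genes. H2bc4 (chr13:23684152-23686082) held 73 LPS and 219 PBS tags (log2 ratio -1.43, interval -1.84 to -1.05). H2bc21 (chr3:96221058-96222662) held 62 and 185 (-1.43), and H2bc6 (chr13:23584307-23585997) held 71 and 184 (-1.22, -1.64 to -0.82). H2bu2 followed with 59 and 116 (-0.83, -1.30 to -0.36). Of the 58 histone regions whose LPS and PBS counts add up to 100 or more, these first 3 were at least 2-fold lower in LPS, against a background of 3.05% of 15798 such regions. None was at least 2-fold higher in LPS, where the background was 0.475%. Counts this small cannot separate the histone regions from either background.

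The low ratios went with shorter peaks in LPS. At H2bc4 the LPS peak covered 0.646 kb and the PBS peak 1.91 kb, and the PBS peak ran 1285 bp farther on the side away from its divergent neighbour H2ac6. At H2bc21 the lengths were 0.757 and 1.60 kb, with 824 bp more in PBS on the side away from H2ac20. At H2bc6 they were 0.743 and 1.68 kb, with 948 bp more in PBS, downstream of the start. Per covered kb the ratios at H2bc4, H2bc21 and H2bc6 were 0.13, -0.34 and -0.05. None of the 58 regions was 2-fold lower in LPS per covered kb, where the background was 0.0696%.

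These 3 genes share an annotation feature, noticed after the values were seen. Of the 67 members, 61 span 375 to 911 bp and 6 span more than 1000 bp, all of them H2B genes. H2bc6 spans 37.5 kb, H2bc22 14.1 kb, H2bc4 8.28 kb, H2bc23 and H4bc24 3.79 kb each and H2bc21 2.67 kb. Some H2B genes are known to give polyadenylated transcripts as well in differentiated cells. The ratios of the other long members were -0.49 at H2bc22 (shared with H2ac22), -0.37 at H2bc23 and -0.80 at H4bc24. Without the 6 regions on long members, the lowest ratio was -0.83 and the median of the other 53 was -0.43.

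Longer peaks in PBS were not limited to the long H2B genes. The H2A genes next to H2bc4 and H2bc21 had them too. H2ac6 held 85 and 162 tags (-0.78) with 720 bp more in PBS downstream, and the region of H2ac21 and H2ac20 (-0.73) had 864 bp more in PBS on the side away from H2bc21. H1f2 had 828 bp more in PBS downstream. In all, 42 of the 59 regions were covered over more bases in PBS and 17 over more in LPS, and over all regions 67.4% were longer in PBS. Where a peak covered the point 200 bp downstream in both lists, it reached at least 500 bp farther in PBS at 9 of 58 histone starts (15.5%) and 10.8% of 10017 other starts. The LPS library was also the shallower one, and the caller's fragment estimate was 149 bp in LPS and 142 bp in PBS. Their part in the peak lengths was not tested.

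**Figure D4:**
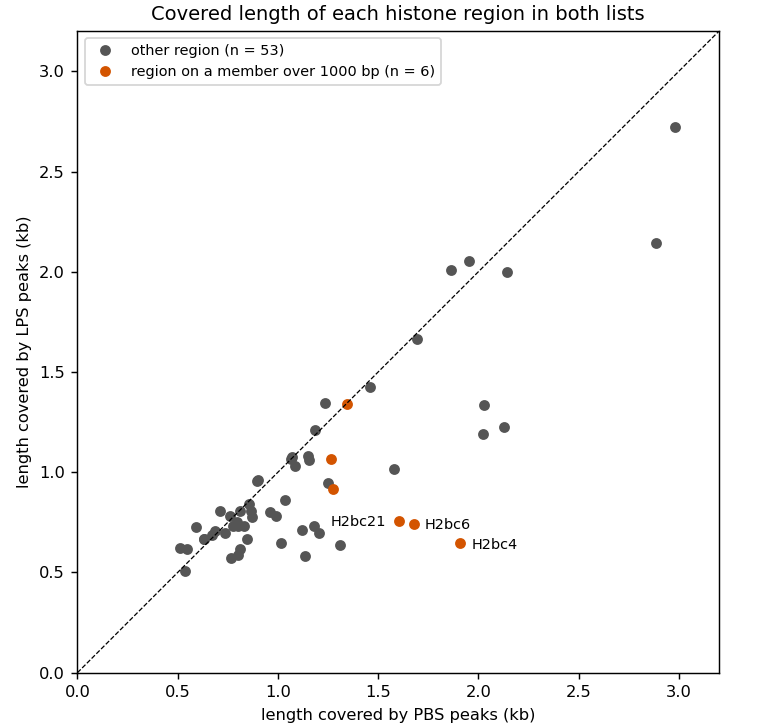
Each point is 1 of the 59 histone regions in both lists, with the length covered by PBS peaks on the horizontal axis and by LPS peaks on the vertical axis, both in kb. The dashed line marks equal lengths, and orange points are regions on members annotated over more than 1000 bp. Of the 59 points 42 lie below the line, and H2bc4, H2bc6 and H2bc21 lie far below it.

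Tag density differed between the histone families. Over regions that cover genes of 1 family, H3 genes had the highest median density, 141 tags per covered kb in LPS and 186 in PBS. H2A genes followed with 133 and 161 and H1 genes with 127 and 146. H2B genes had 102 and 120 and H4 genes 90.3 and 118. The order of the families was the same in both libraries, and the ranges overlapped: H4 regions ran from 67.7 to 136 and H3 regions from 122 to 160 in LPS. The median log2 ratios were -0.32 for H2A, -0.42 for H3, -0.43 for H4, -0.47 for H1 and -0.49 for H2B. Summed over the regions in both lists, the ratios were -0.38 for H3, -0.41 for H1, -0.43 for H2A, -0.47 for H4 and -0.68 for H2B. Per covered kb these sums gave -0.22, -0.038, -0.16, -0.17 and -0.22.

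**Figure D5:**
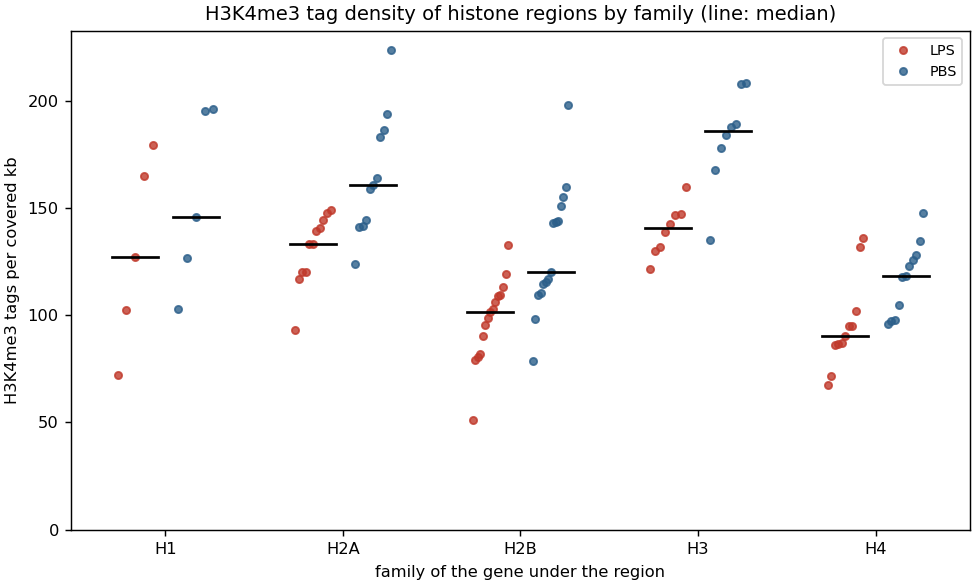
Points are the H3K4me3 regions that cover genes of 1 histone family in both lists, with tags per covered kb on the vertical axis, LPS in red and PBS in blue, and the line is the median. Medians run from 90.3 (H4) to 141 (H3) in LPS and from 118 (H4) to 186 (H3) in PBS.

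Within each list the median histone peak ranked somewhat above the middle in strength and, in LPS, was short. The caller's fold enrichment, which is the authors' value, had a median of 7.59 over the 63 LPS peaks and 7.86 over the 67 PBS peaks. The median percentile of a member peak in its list was 58.4 in LPS and 56.7 in PBS by fold, and 56.2 and 61.2 by tags. By tags, 44 of the 63 LPS and 61 of the 67 PBS peaks lay above the median of their list. Against all shared regions near protein-coding genes the order was the reverse. There the median over both libraries was 339 tags, and that of the histone regions 247. The median length was 797 bp in LPS and 991 bp in PBS, with median percentiles of 37.4 and 46.8.

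H3K9me3 peaks were rare at the histone genes. A peak met 1 of the 67 genes or its 1 kb flank in either list (1.49%, interval 0.0378 to 8.04), against a background of 36.8% of all protein-coding genes. That background includes genes of every length. Of other genes of at most 1000 bp, 43 of 1516 (2.84%, interval 2.06 to 3.80) met an H3K9me3 peak. The wide histone interval holds 2.84%, so these counts cannot separate histone genes from other short genes. The 1 histone gene was H2bu2, with a peak of 21 tags in its flank in LPS (chr11:58949504-58949807, score 74.5). The PBS list had none, and 0 of 67 genes allows a share of up to 5.36%. No H3K9me3 peak in either list lay on a histone gene itself.

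Over the whole runs of histone genes, spacers included, H3K9me3 peaks were not rarer in LPS than along the same chromosomes. The 7 runs and single loci with their flanks span 435.9 kb. They held 3 LPS peaks (6.88 per Mb, against 7.0 along the genic span of these chromosomes) and 1 PBS peak (2.29 against 7.68 per Mb). Such small counts cannot separate these densities. In the long stretch of Vmn1r genes the LPS list had 6 and the PBS list 12 H3K9me3 peaks, or 4.04 and 8.08 per Mb.

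Genes that serve histone supply were marked by H3K4me3 throughout. Levels of these longer genes are sums over peaks on the gene and 1 kb around it, a scale on which the median over all genes was -0.37 and that over the histone genes -0.45. Of all protein-coding genes 67.3% had H3K4me3 in both lists, which is the background for the gene lists that follow. All 17 genes of histone transcription and messenger RNA processing had H3K4me3 in both lists, with a median of -0.36. The highest were Sympk, a scaffold of the cleavage complex (0.24), and the cell cycle factor E2f4 (0.03), and the lowest Lsm10, part of the U7 particle that cuts histone transcripts (-0.79), and Cstf2 (-0.57). Divided by covered length the order changed: Sympk stood at -0.67, E2f4 at -0.46, Lsm10 at 0.04 and Cstf2 at -0.64. Npat held 275 LPS and 448 PBS tags (-0.55) and Slbp 181 and 267 (-0.41).

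All 13 histone chaperones were marked in both lists, with a median of -0.28. Daxx, which deposits the variant H3.3, stood highest (0.25) and Asf1b next (-0.09), and Rbbp7 (-0.51) and the H1 and H3 chaperone Nasp (-0.48) lowest. All 11 replication-independent histone genes found were marked in both, with a median of -0.40. H1f10 (0.07) and Macroh2a1 (0.01) were highest, and H2az2 (-0.91) and H3f3b (-0.61) lowest. All 18 genes of S phase were marked in both, with a median of -0.39. The licensing factor Cdt1 stood highest (0.44) with Orc1 next (-0.06). The lowest were Mcm2 (68 and 153 tags, -1.02) and Mcm7 (-0.94), subunits of the replicative helicase. Divided by covered length, the highest and lowest genes of these lists changed places in part. Daxx stood at -0.26, Asf1b at -0.19, Rbbp7 at -0.08 and Nasp at -0.14. H1f10 stood at 0.14, Macroh2a1 at -0.45, H2az2 at -0.22 and H3f3b at -0.63. Cdt1 stood at -0.28, Orc1 at -0.36, Mcm2 at 0.06 and Mcm7 at -0.007.

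On that scale histone genes that share a peak each count its tags, so they are not independent. Of the 66 histone genes, 44 lay below the median of all genes. So did 8 of 17, 4 of 13, 6 of 11 and 10 of 18 genes of these lists, in the same order. H3K9me3 met 4 of 17, 6 of 13, 5 of 11 and 1 of 18 of their genes, on both sides of the 36.8% of all genes.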

How the data were processed

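Per the submitters' processing notes, the tools were CASAVA 1.4, Bowtie 0.12.8, MACS 1.4.2 and DiffBind on mm10. Peaks were called library by library without a control, at a p threshold of 1e-05 and with at most 1 tag per position, per the file headers. Each deposited table gives per peak the count of tags, a score (minus 10 times log10 of p) and a fold enrichment, the caller's ratio to its background. Regions missing from a list fell below the caller's threshold, which is not absence of the mark. Tags were 49 bp in the H3K4me3 LPS library and 50 bp in the others.

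Peaks were read with Python 3.11.15 and pandas 2.3.3 and assigned to genes of RefSeq GRCm38.p6, the build of mm10, with at least 1 bp of overlap within 1 kb. LPS and PBS peaks that overlapped or touched were merged, and tags were scaled by filtered tags. Overlaps were checked with bedtools 2.31.1, and the steps were tested on simulated data. Starts and sequences came from the RefSeq promoter table. Where a gene had several starts, the outermost was used. Ratio and share intervals are exact Clopper-Pearson intervals at 95%, for counting error only.

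The members, gene lists and motifs were chosen with earlier results of these data known. Named regions were the 4 with most tags in each cluster, the 4 highest and 4 lowest ratios among regions of at least 100 tags, and members in 1 list only; of each related list, the 2 highest and 2 lowest genes. Npat and Slbp were named besides. Alternatives were a score minimum, other windows and overlaps, other scalings and bridged gaps. A marker gene is not reported here.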

Additional observations from a re-analysis of the deposited data

How the results depend on the processing

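Every alternative tried kept the sign of the median region and of the 3 cluster sums. Single regions did not all keep theirs: of the 59 regions 1 was above 0 per filtered tag, 12 per covered kb and 19 when centred on the median shared region. Of 38 alternatives, 25 moved a value by no more than its counting interval or 1.5 times its count, and 13 moved it farther. In tags per covered kb the median region gave -0.23, chromosome 13 gave -0.18 and chromosome 3 gave -0.034 (-0.10 over its regions in both lists). With all tags of the header as the scale, the median was -0.35 and chromosome 13 gave -0.36. Centred on the median shared region, the values were -0.12 for the median, -0.13 for chromosome 13, -0.20 for chromosome 3 and -0.19 for chromosome 11. With peaks of score 100 or more, chromosome 13 gave -0.56, and the cause was not tested. The count of genes with H3K9me3 was 0 with scores of 100 or more, 0 without flanks and 2 within 2.5 kb, where a PBS peak of 14 tags near H4c14 was added.

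The count of genes with H3K4me3 in both lists ranged from 62 to 67. Chosen after seeing the data, leaving out genes with copied or missing promoter entries gave a median of -0.45 over 41 regions, and leaving out the long members gave -0.43. Sums over only the regions in both lists gave -0.44 on chromosome 13, -0.45 on chromosome 3 and -0.52 on chromosome 11. No paired analysis was possible because each group has 1 library. Depth limits single regions: 18 of 59 counting intervals held 0.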
